A study of Mus musculus with 6 samples.

Results

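Stonin-2 (Ston2), Plxdc1, Muc20, Ryk, Adam8, Padi2, Rab19, St8sia4, Lonrf1 and Greb1 are 10 of the 18193 genes with their own probe sets on the array. They were chosen by their signals, because each differed strongly, and in 1 direction, between NCOR1-LYN and control cells in all 3 same-numbered pairs of arrays, as 34.7% of tested genes did in direction alone. That contrast chose them, so its values are given for these genes as a description, with no p-value. All 10 had a probe set bright enough to be tested, and together they had 19 probe sets.

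Affymetrix mouse expression arrays, read with several probes per transcript (a probe set), measured RNA of Ba/F3, an established mouse pro-B cell line that depends on interleukin 3. A retroviral Tet-on vector gave the cells a doxycycline-dependent NCOR1-LYN protein, a fusion of parts of the nuclear corepressor NCOR1 and the tyrosine kinase LYN. The NCOR1-LYN group of 3 arrays came from cells given doxycycline, and the control group of 3 arrays from cells of the same kind without it. Drug and fusion protein therefore cannot be told apart, and the labels name the cultures as triplicates without saying how far they were separate, so errors measure the spread between these arrays. In bulk RNA, fewer cells of a type and less RNA per cell cannot be told apart.

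The 10 genes belong to different pathways. Ston2 is an adaptor that works with the AP-2 complex in clathrin-mediated endocytosis, and Rab19 is a small GTPase of the Rab family, which directs membrane traffic. Plxdc1, Muc20, Ryk and Adam8 encode proteins of the cell surface: a receptor for pigment epithelium-derived factor, a transmembrane mucin that binds the MET receptor, a Wnt co-receptor with an inactive kinase domain, and a metalloprotease that sheds membrane proteins of leukocytes. St8sia4 builds polysialic acid on glycoproteins, Padi2 converts arginine in proteins to citrulline, Lonrf1 is a RING finger protein with a LON domain, and Greb1 is best known as an oestrogen-induced cofactor of the oestrogen receptor.

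Median signals of the 6 arrays ran from 54.6 to 61.7, and precision is limited by there being 3 arrays a group. The replicate 1 arrays stood apart on the first principal component, at -37.2 (control) and -24.9 (NCOR1-LYN), with 12 to 18.6 for the other 4 arrays. Of 14 pro-B markers on the array, 4 had a mean signal above 64. Cd79b had 471 in controls and 436 with NCOR1-LYN, while Cd22, Pax5 and Igll1 lay near 64, with group means from 63.7 to 84.4. Cd79a, Ebf1, Rag1 and Dntt stayed below 64. The summed signal of 11 neutrophil and monocyte markers was 2638 to 2723 in controls and 7589 to 10556 with NCOR1-LYN. Most of that difference lay in Ngp (means of 822 and 4439) and Prtn3 (1195 and 3618, with -0.01 in pair 1), Ltf went from 60.8 to 567 and was the 1 member that passed in limma (adjusted p = 0.0175), Csf1r had 147 and 139, and Elane, Ctsg, Camp, Itgam and Cd14 were below 64. The sum of 10 mast cell and basophil markers was 8534 to 16000 and 8284 to 9631, most of it Gata2 (means of 9843 and 5461), and 6 of the 10 were below 64. Within it Fcer1a had means of 568 and 3234, with uneven pairs of 0.68, 3.30 and 3.22. Its log2 difference was 2.40 (limma adjusted p = 0.0963 with the replicate block, and 0.26 without). Cma1 fell with the block from 330 to 46.2 (-1.73, limma adjusted p = 0.0281, and 0.534 without). The part of these marker levels in the results for the 10 genes was not tested.

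With NCOR1-LYN, 4 of the genes were higher (Ston2, Lonrf1, Plxdc1 and St8sia4) and 6 were lower (Rab19, Muc20, Padi2, Adam8, Greb1 and Ryk). Their differences are on the log2(signal + 64) scale, on which dim genes appear to change less than they do, and ran in size from 1.23 to 2.10, with a median size of 1.63 against 0.12 over the 10916 genes tested. The signals of the groups did not overlap for 8 of the 10, where 11.2% of all tested genes had groups that did not overlap. In limma, at an adjusted p of 0.05, 3 of the 10 passed without a block (Ston2, Plxdc1 and Muc20), against a background of 0.0824% of genes. All 10 passed with the replicate number as a block, against 0.824% of genes. These counts restate the choice of the genes. Without the block, 0 of all tested genes were called when a replicate 2 or 3 array of either group was left out, with 346 to 415 genes at an unadjusted p under 0.05, and 15 passed without control 1.

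**Figure D1:**
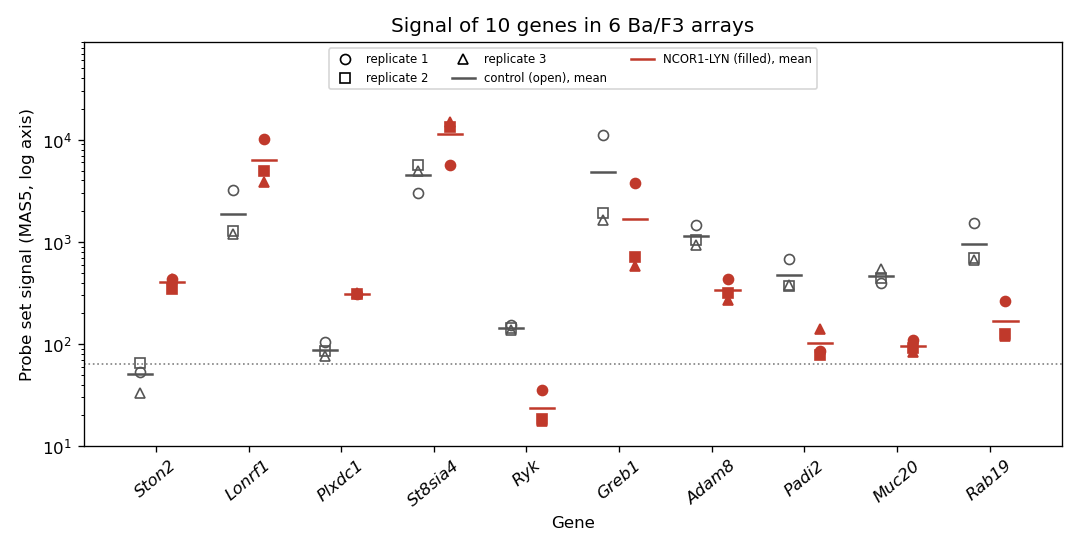
Probe set signal (log axis) of the 10 genes in the 3 control arrays (open grey symbols) and the 3 NCOR1-LYN arrays (filled red symbols), with the group means as bars and a dotted line at a signal of 64. The groups overlap only for St8sia4 and Greb1, where replicate 1 (circles) stands far from replicates 2 and 3 in both groups.

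Both genes of membrane traffic kept their direction in every pair, Ston2 upward and Rab19 downward. Ston2 had control signals of 53.6, 64.8 and 33.0 in replicates 1, 2 and 3, around the offset of 64, and NCOR1-LYN signals of 436, 344 and 429. The lowest NCOR1-LYN array was thus far above the highest control array, and the means were 50.5 ± 16.1 and 403 ± 51.3 (SD, n = 3). The pair differences of Ston2 were 2.09, 1.66 and 2.34 on the log2 scale. A second, dimmer Ston2 probe set gave 92.4, 7.65 and 41.0 in controls and 136, 243 and 284 with NCOR1-LYN, again without overlap. Its pair differences of 0.35, 2.10 and 1.73 were less even, with the smallest in pair 1. Rab19 read 1527, 700 and 659 in controls and 261, 125 and 119 with NCOR1-LYN. Every NCOR1-LYN array lay below every control array, although replicate 1 was the highest of its group on both sides. The pair differences of Rab19 were -2.29, -2.02 and -1.98, with a mean of -2.10. With an offset of 16 the mean was -2.38 for Rab19 and 2.68 for Ston2, so the order of these genes by size depends on the offset.

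The 250 bases before the start of Ston2 and of Rab19 are shown because these were the only members, among the 8 with a promoter in the RefSeq table (GRCm38.p6), whose upstream window held the letters bound by STAT5, the factor activated by interleukin 3. The motif searched was TTCNNNGAA, the same on both strands, and its match is in capitals. Lonrf1 and Plxdc1 had no promoter there and were not searched.
Ston2, chr12:91786437-91786686, minus strand: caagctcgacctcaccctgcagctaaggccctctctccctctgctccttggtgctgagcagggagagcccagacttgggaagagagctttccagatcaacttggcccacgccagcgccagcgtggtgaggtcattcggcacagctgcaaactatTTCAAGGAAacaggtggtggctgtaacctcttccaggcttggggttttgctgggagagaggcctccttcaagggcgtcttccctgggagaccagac
Rab19, chr6:39381103-39381352, plus strand: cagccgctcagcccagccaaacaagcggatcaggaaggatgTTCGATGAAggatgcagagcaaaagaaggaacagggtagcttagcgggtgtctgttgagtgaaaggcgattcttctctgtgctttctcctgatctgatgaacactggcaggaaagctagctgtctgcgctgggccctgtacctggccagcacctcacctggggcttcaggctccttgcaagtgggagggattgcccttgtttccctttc
The match began 96 bases before the start in Ston2, which was higher with NCOR1-LYN, and 209 bases before it in Rab19, which was lower. Of 32851 promoter windows of this length, 7.02% held the motif. The AP-1 letters TGANTCA (in 6.75% of windows) and the ETS letters CCGGAAGT (either strand, in 2.88%) matched in 0 of the members' windows. Greb1 had 2 windows, with 65.2 and 46.0% G and C, and the most CpG-rich member was Ryk, with 33 CpG dinucleotides against a median of 6 over all windows. Such matches are letters in a window and no measure of binding.

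Of the genes for cell-surface proteins, Plxdc1 was higher and Muc20, Ryk and Adam8 were lower with NCOR1-LYN. Plxdc1 had 104, 85.1 and 75.6 in controls and 311, 306 and 317 with NCOR1-LYN. The NCOR1-LYN arrays lay close together, with means of 88.3 ± 14.5 and 311 ± 5.16 (SD, n = 3), and the groups were apart. Its pair differences were 1.16, 1.31 and 1.45. A second Plxdc1 probe set, with a mean signal of 49.1, did not follow: its pairs were -0.37, -1.0 and 0.25, and its groups overlapped.

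Muc20 had control signals of 393, 446 and 537 and NCOR1-LYN signals of 110, 91.2 and 83.3. No array of 1 group reached the range of the other, and the pair differences were -1.39, -1.72 and -2.03. The second Muc20 probe set had a mean signal of 20.0, and its pairs went both ways (-0.42, -0.27 and 0.39). The mean difference of Muc20 was -1.71, and -0.91 when its probe sets were averaged. Ryk had the smallest spread among controls on the log2 scale (SD 0.06), at 154, 145 and 137, against 35.3, 18.6 and 17.7 with NCOR1-LYN. The control arrays lay above the offset of 64 and the NCOR1-LYN arrays below it, so the pair differences of -1.13, -1.34 and -1.30 depend on the offset. With an offset of 16 the mean difference of Ryk was -2.04 in place of -1.26, and with a larger one it was -0.85. A second Ryk probe set was lower in all pairs (-1.91, -0.36 and -0.91) with control signals of 257, 27.7 and 83.9. The dimmest, with a mean signal of 19.9, had pairs of -0.18, 0.15 and 0.63.

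Adam8 had the most even pairs of the 10, at -1.62, -1.55 and -1.58, which is an SD of 0.04. Its signals were 1455, 1048 and 941 in controls and 430, 316 and 272 with NCOR1-LYN. Replicate 1 was the highest in each group, and the groups did not overlap. It had 1 probe set, so no second reading of this gene was at hand.

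The enzymes of protein modification and the RING protein gene went both ways. St8sia4 read 3045, 5625 and 4999 in controls and 5606, 13474 and 15055 with NCOR1-LYN. NCOR1-LYN 1 lay just below control 2, so the groups overlapped, while within pairs the differences were 0.87, 1.25 and 1.58. A dimmer second St8sia4 probe set did not overlap between groups, with 213, 341 and 354 against 631, 876 and 717, and its pairs were 1.33, 1.22 and 0.90. The order of the pairs was thus the opposite in the second probe set. Lonrf1 had 3226, 1274 and 1191 in controls and 10199, 4898 and 3841 with NCOR1-LYN. The lowest NCOR1-LYN array exceeded the highest control array, and the pair differences were 1.64, 1.89 and 1.64. Padi2 was lower, with 684, 369 and 380 in controls and 86.2, 78.8 and 141 with NCOR1-LYN. The groups did not overlap, but the pairs of Padi2 were the least even of the 10, at -2.32, -1.60 and -1.11.

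Greb1 had 4 probe sets, all of them far higher in replicate 1 than in replicates 2 and 3. In the probe set used, controls were at 11119, 1933 and 1622 and NCOR1-LYN arrays at 3734, 711 and 575. NCOR1-LYN 1 thus exceeded controls 2 and 3, while each pair alone gave -1.56, -1.37 and -1.40. A second bright probe set gave -1.72, -1.22 and -1.24. The remaining 2, with mean signals of 192 and 220, gave -1.43, -0.49 and -0.53 and, less evenly, -1.05, -0.93 and 0.17. The mean difference of Greb1 without pairing was -0.57 without control 1 and -2.25 without NCOR1-LYN 1, and -1.38 without both replicate 1 arrays.

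**Figure D2:**
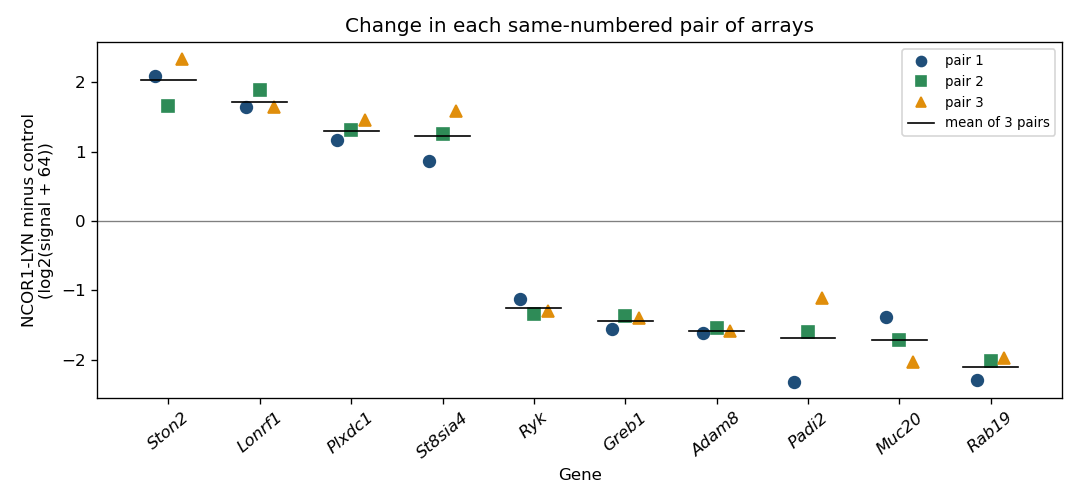
NCOR1-LYN minus control on the log2(signal + 64) scale for the 10 genes, with a symbol for each of the 3 pairs and a bar at their mean. Adam8 has nearly equal pairs (-1.62, -1.55 and -1.58), and Padi2 the widest range (-2.32 to -1.11).

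Pair 1 had the largest difference of the 3 in 4 of the genes and the smallest in 4 others. Ranked by the smallest of the 3 pair differences, with all 3 of 1 sign, the 10 genes held places from 5 (Rab19) to 41 (St8sia4) of the 10916 tested. The rule states no limit: 41 genes had a smallest pair difference of at least 0.87, that of St8sia4, and 31 of these were not among the 10. The first gene below it that was not a member had 0.84. A smallest difference of at least 1 was reached by 9 of the 10 and by 30 genes in all (0.275%).

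Of the 9 other probe sets of these genes, 7 had a mean difference of the same sign as the probe set used, and 5 had that sign in all 3 pairs. The 3 with a mean signal below 64 (Plxdc1, Muc20 and Ryk) each had pairs of both signs. These readings come from the same RNA and arrays and are no further replicates.

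**Figure D3:**
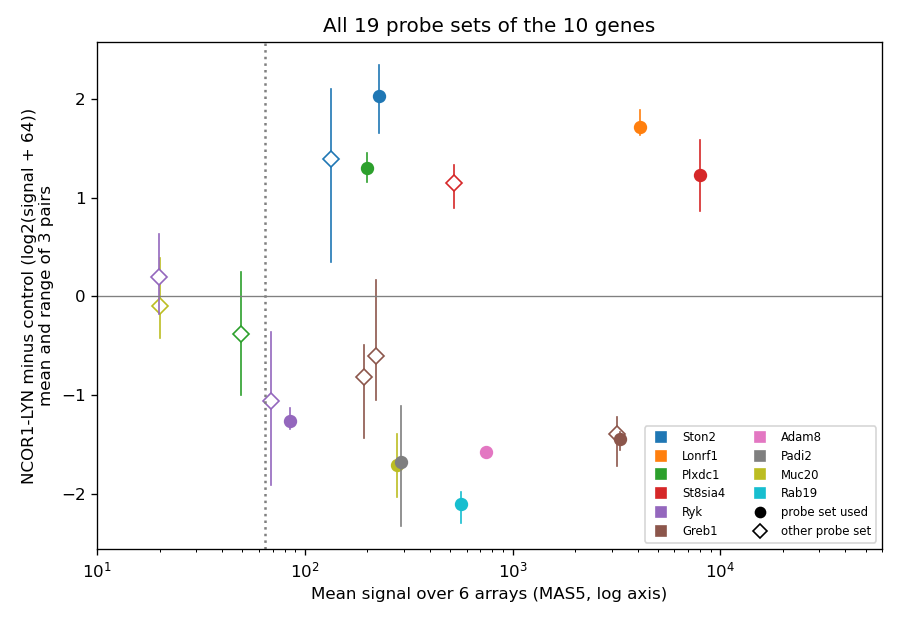
Mean signal over the 6 arrays (log axis) against NCOR1-LYN minus control on the log2(signal + 64) scale for all 19 probe sets of the 10 genes, with lines for the range of the 3 pairs, filled circles for the probe set used and open diamonds for the others. The 3 probe sets left of the dotted line at 64 have ranges that cross 0.

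The level of replicate 1 against replicates 2 and 3, both groups together, was not part of the choice of the genes by direction and could be tested. This split was taken because earlier results of these data had placed replicate 1 apart. The fit counts the same-numbered arrays as independent, so its errors and p-values measure the spread between arrays and not between separate replicates. In limma with group in the model, 5 of the 10 passed at an adjusted p of 0.05, 4 higher in replicate 1 and 1 lower, where 34.4% of all genes passed. The 5 are therefore not far from the background. Greb1 was higher in replicate 1 by 2.52 ± 0.12 (SE, limma adjusted p = 6.03e-05), Lonrf1 by 1.28 ± 0.11 (0.000362), Rab19 by 0.95 ± 0.12 (0.00112) and Adam8 by 0.50 ± 0.11 (0.00968). St8sia4 was lower by -1.06 ± 0.13 on the log2 scale (limma adjusted p = 0.00111). In each group alone, the replicate 1 signal of Greb1 was 6.26 times (control) and 5.81 times (NCOR1-LYN) the mean of replicates 2 and 3.

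For Greb1 this difference was larger than that between the groups (1.75 times its size), as it was for 71.7% of all genes, and for the other 9 it was smaller. The genes were chosen for a large difference between the groups, so this contrast with all genes follows from the choice. Ston2 (0.12 ± 0.17), Plxdc1 (0.11 ± 0.13), Muc20 (-0.04 ± 0.15), Ryk (0.18 ± 0.15) and Padi2 (0.29 ± 0.24) did not pass. Ston2, Plxdc1 and Muc20 are the genes that were called without a block, which needs a small spread between replicates, so their small values here follow in part from how they were found. For Padi2 the difference was 0.77 in controls and -0.19 with NCOR1-LYN, and it passed in limma without NCOR1-LYN 1 and had the other sign without control 1 (-0.19). With quantile normalization, the share of higher genes among all calls of replicate 1 was 46.1% in place of 56.5%, and the same number of the 10 genes passed.

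**Figure D4:**
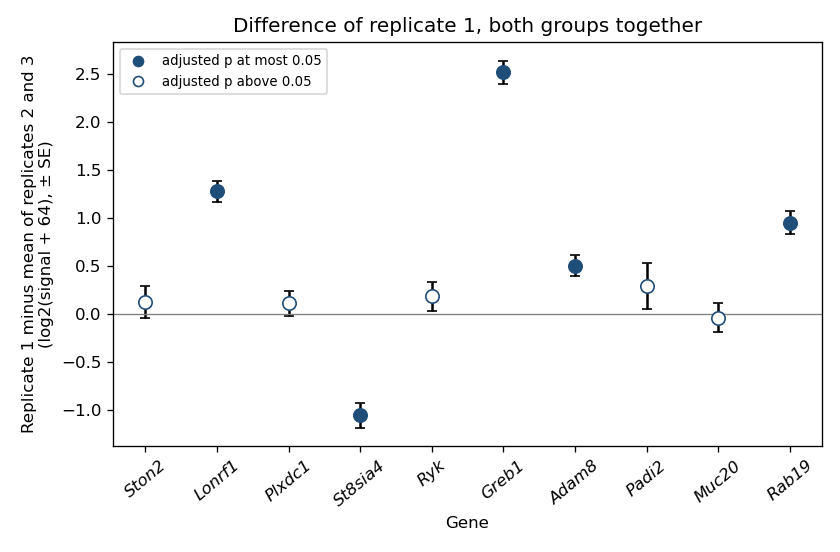
Replicate 1 minus the mean of replicates 2 and 3 on the log2(signal + 64) scale, both groups together (± SE, limma), for the 10 genes. Filled symbols mark the 5 genes with an adjusted p of at most 0.05: Greb1, Lonrf1, Rab19 and Adam8 above 0 and St8sia4 below it.

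Relatives and partners of the 10 genes, 228 in all, were read off the same fits. Of these, 221 were on the array and 137 were bright enough to be tested. Without a block 0 of the 137 passed in limma, with 10 at an unadjusted p under 0.05, where 4.75% of all genes had one. Their median difference was -0.04 against -0.01 over all genes. With the replicate block 3 passed, 1 higher and 2 lower, beside 0.824% of all genes. Without both replicate 1 arrays 17 passed, where 6.91% of all genes did. The shares of these 10, 3 and 17 among the 137 were each above that of all genes, a difference that was not tested.

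Among 27 tested genes of clathrin-mediated endocytosis, the setting of Ston2, 0 rose and 1 fell with the block. Bin1, a protein that senses and bends membranes, went from 1075 ± 410 to 537 ± 133 (SD, n = 3), a log2 difference of -0.89 ± 0.12 (SE, limma with block, adjusted p = 0.0289, and 0.715 without). Hip1, a clathrin and actin binding protein, had -0.90 ± 0.15 with an adjusted p of 0.0586 with the block in limma. Of 41 tested Rab genes, the family of Rab19, 1 rose with the block and 0 fell. Rab38, which serves the transport to lysosome-related organelles, went from 5188 ± 441 to 10011 ± 1600 (SD, n = 3), a log2 difference of 0.93 ± 0.14 (SE, limma with block, adjusted p = 0.0438, and 0.157 without). Rab38 and Rab19 thus had opposite signs.

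Of 11 tested oestrogen receptor genes, cofactors and targets, listed for Greb1, 0 rose and 1 fell with the block. Igfbp4, which encodes a binding protein of insulin-like growth factors, went from 8736 ± 855 to 5293 ± 451 (SD, n = 3), with pairs of -0.74, -0.62 and -0.79 (limma with block, adjusted p = 0.0246, and 0.217 without). In the other 7 lists 0 genes passed with or without the block in limma, with 11 of 58 tested members at an unadjusted p under 0.05 with the block and 5 without, where 11.3% and 4.75% of all genes were. Of 20 tested sialyltransferases and genes of sialic acid supply, St8sia2, the other polysialyltransferase, had means of 21.6 ± 1.34 (control) and 92.4 ± 22.4 (NCOR1-LYN, SD, n = 3), a log2 difference of 0.86 (limma adjusted p = 0.0869 with the block), with controls below the offset. Of 7 tested ADAM proteases and their TIMP inhibitors, Adam17, which sheds tumour necrosis factor, had 0.57 (0.110).

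The 3 tested relatives of Padi2 were Padi3 (-0.37), Padi4 (-0.31) and Padi6 (-0.11). Padi4 had even pairs of -0.31, -0.32 and -0.30. Of 16 mucins and MET pathway genes, 14 were on the array and 1 was bright enough to be tested, Muc13, with -0.33. Met itself had mean signals of 10.9 (control) and 13.0 (NCOR1-LYN). Of 19 tested Wnt receptors and effectors Wnt7a had the largest difference, 0.35, and of 5 tested relatives and partners of Plxdc1 it was Antxr1, with 0.39. Plxdc2, the closest relative of Plxdc1, had 0.23 ± 0.19 (SE, limma without block), with an SE of 0.11 with the block. Without both replicate 1 arrays Plxdc2 had 0.37 (limma adjusted p = 0.00573) and Antxr1 0.47 (0.0215), where 6.91% of all genes passed. Relatives that passed in this setting went both ways. St3gal1 had 1.03 (0.00073), with the sign of St8sia4, and St3gal2 had -0.85 (0.00146), with the opposite sign. Adam17 had 0.67 (0.00149), opposite in sign to Adam8. Of 3 tested LON domain genes, the mitochondrial protease gene Lonp1 had 0.28, with pairs of 1.52, -0.30 and -0.38, so that without both replicate 1 arrays it was -0.34.

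The nearest protein-coding genes on either side of each of the 10 were read as well, by their order in the GRCm38.p6 RefSeq table. Of 20 neighbours 17 were on the array and 9 were tested. In limma 0 passed without a block (0.0824% of all genes), with 1 at an unadjusted p under 0.05 (4.75%), and 1 passed with the block (0.824%). This was Slc37a3, a gene of a sugar-phosphate exchanger family next to Rab19, which went from 819 ± 70.6 to 374 ± 96.9 (SD, n = 3), a log2 difference of -1.03 ± 0.13 (SE, limma with block, adjusted p = 0.0264, and 0.226 without). Its pairs were -0.78, -1.06 and -1.25, smallest in pair 1, whereas Rab19 was most different there. Mkrn1, on the other side of Rab19, had -0.39 (limma adjusted p = 0.171 with the block), and E2f6, next to Greb1, had -0.53 (0.0869). Without both replicate 1 arrays all 3 passed in limma, where 6.91% of all genes did. The largest positive difference was that of Sel1l, next to Ston2, at 0.34, with pairs of 1.04, -0.02 and -0.01.

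Between replicates, 3 of the 9 tested neighbours passed for replicate 1 against replicates 2 and 3, where 34.4% of all genes did. Mkrn1 was higher in replicate 1 by 0.94 (limma adjusted p = 0.000517), next to Rab19 with 0.95, while Slc37a3, on the other side of Rab19, had 0.34 and did not pass (0.0675). Fam174a was lower by -0.39 (limma adjusted p = 0.0147), next to St8sia4 with -1.06. E2f6 was higher by 0.80 (0.000803), next to Greb1 with 2.52. Signs differed for Prag1 (-0.16), next to Lonrf1 with 1.28, and for Tubgcp2 (-0.18), next to Adam8 with 0.50. Neither passed (limma adjusted p = 0.356 and 0.294). The count of 3 is near the background share and is no result about the neighbours.

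**Figure D5:**
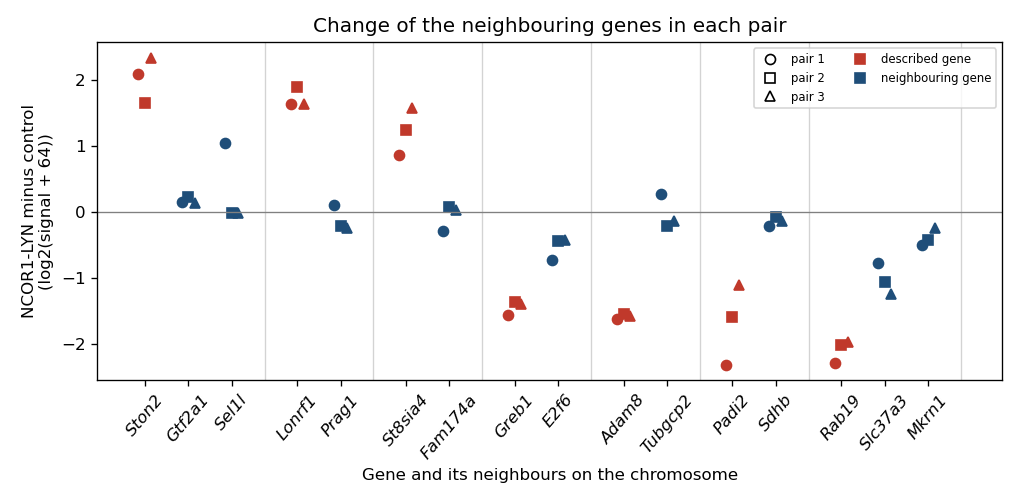
NCOR1-LYN minus control on the log2(signal + 64) scale in each of the 3 pairs for the described genes (red) and their tested neighbours on the chromosome (blue). Slc37a3, beside Rab19, lies at -0.78 to -1.25, and the other neighbours lie between -0.73 (E2f6, pair 1) and 1.04 (Sel1l, pair 1).

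For each gene the 3 tested genes with the most similar values were sought, by the root mean square difference of log2 values over the 6 arrays after centring each gene on its mean. This measure takes in the difference that chose the genes, and all genes share the same arrays. Plxdc1 was closest to the chemokine gene Ccl9 (0.10), followed by Osm and Bhlhe40. Rab19 was closest to the chemokine receptor gene Cxcr2 (0.12), whose pairs were -2.09, -1.98 and -2.06, followed by Aldh3a1 and Ccr1. Ryk was closest to Pdcd1lg2 (0.14), S100a6 and Slc37a3, the neighbour of Rab19. Muc20 was closest to S100a6 (0.20), Ryk and Egr3, and Ston2 to Ccl6 (0.21), Aldh1a7 and Ltf.

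Padi2 was closest to genes with the same large pair 1 difference: Lgmn (0.19), the lysosomal protease legumain, had pairs of -2.38, -1.17 and -1.10, and Gsn and Gnb4 followed. St8sia4 was closest to 4933411E08Rik (0.17), Ephx2 and Rasgrp3, which were all lower in replicate 1. Adam8 was closest to Mamdc2 (0.22), Ryk and Aldh3a1. Lonrf1 and Greb1 had no gene as close. Lonrf1 came nearest to Lyz1 (0.32), Gda and Scin, and Greb1 to Tnfsf4 (0.42), Trp53inp1 and Tgm2, which shared the high replicate 1 (1.94, 2.0 and 2.16) and had smaller differences between the groups.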

How the data were processed

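Linear probe set intensities were deposited, which per the submitters' processing notes came from MAS5 (version not given in the sources used here). Their 2% trimmed mean is alike on every array. No detection calls were used. Of 45101 probe sets, 34945 had exactly 1 gene symbol, 932 had several, 64 were controls and 9160 had none. Symbols were checked against RefSeq (GRCm38.p6) by Entrez identifier, and 0 changed.

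Signals were used as log2(signal + 64), with the brightest probe set for each gene, and 10916 genes at or above the 40th percentile (a signal near 47) were kept. Tests used limma 3.58.1 (R 4.3.3; lmFit, eBayes with trend), two-sided, Benjamini-Hochberg adjusted over all of them at 0.05, with 4 residual degrees of freedom, 2 with the replicate block and 3 for replicate 1 against the others. The fits were tested on simulated data with independent noise between arrays. For the groups these data held no replicate 1 effect, unlike the arrays here. In them 57.6% of 2-fold changes were recovered without a block and 31.8% with it, and 87.2% and 86.4% of 4-fold changes. A gene that did not pass is therefore not shown to be unchanged. Same-numbered arrays correlated in their deviations from the group means across genes at 0.617, 0.409 and 0.439, above 0.1, so the numbers were taken to pair them. The labels name no shared day, and control 3 correlated as well with NCOR1-LYN 2 (0.485), and control 2 with NCOR1-LYN 3 (0.393). The correlations thus set replicate 1 apart but do not decide how replicates 2 and 3 pair, which rests on their numbers. The 10 genes, the lists, the tests and the alternatives were chosen with earlier results of these data known. Genes named beside the 10 are, for each list, those past the threshold (up to 4) or else the largest change, with the called and largest neighbours and the 3 most similar genes. Hip1, Padi4, Padi6, Plxdc2, Met, St3gal1, St3gal2, Mkrn1, E2f6, Fam174a, Prag1, Tubgcp2 and the single marker genes were named after their values were seen.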

Additional observations from a re-analysis of the deposited data

How the results depend on the processing

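The log2 differences of the 10 genes kept their sign in all 140 values under 14 alternatives (other offsets, filters, scaling, probe set averaging, the replicate block and arrays left out). By construction, the filters and the replicate block leave these values unchanged. Without both replicate 1 arrays the sign follows from the choice of the genes, so the 140 values are not as many separate checks. Of the 140 values, 12 moved by more than the gene's own spread between replicates. All of them were for Ston2, Plxdc1, Muc20 and Ryk under another offset or the mean of all probe sets. This measure differs by gene and does not rank the genes by stability. With 1 array left out, Greb1 ran from -2.25 to -0.57 without counting as moved, as its spread was wide, and Plxdc1 from 1.24 to 1.38. Over all genes, NCOR1-LYN against control gave 9 calls in limma, 90 with the replicate block, 1 with no filter on dim genes, 1 with the filter at the 60th percentile, 754 without both replicate 1 arrays, and 0 to 15 with 1 array left out. Of the related genes, 3 passed with the replicate block and 17 without both replicate 1 arrays, and of the neighbours 1 and 3, with 0 otherwise. Replicate 1 against the others gave 3752 calls, and 2460 (without control 3) to 4560 with 1 array left out. The replicate 1 difference changed sign, without being called, for Plxdc1 under quantile normalization (-0.025), the mean of all probe sets (-0.087) and arrays left out (-0.0027 to 0.22), for Muc20 (-0.28 to 0.20) with arrays left out, and for Padi2 without control 1 (-0.19). With other arrays left out Padi2 had up to 0.77, which passed, without NCOR1-LYN 1. The causes were not tested. With the mean of all probe sets Plxdc1 had 0.46, Muc20 -0.91 and Ryk -0.71, and Muc20 had -2.10 with an offset of 16 and -1.39 with a larger one. Padi2 depended on the offset much as Muc20 did, with -2.045 at an offset of 16 and -1.37 at a larger one, against -1.68. It did not count as moved, as its spread was wide. Signals near 64 and below limit Ston2, Ryk, Plxdc1 and Muc20, and NCOR1-LYN signals of 78.8 to 141 limit Padi2. The 3 arrays a group limit all values.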
